A study of Mus musculus with 12 samples.

Results

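The 40 antioxidant and redox genes examined here are the master regulators, enzymes and metal-binding proteins that set how a cell handles reactive oxygen species. They were taken as a fixed list of NRF2 pathway, glutathione, thioredoxin, peroxide-clearing and superoxide-generating genes, and all 40 were found among the 21851 protein-coding genes of the GENCODE mouse annotation. Each was read in a window made of its gene body and 5000 bp on each side (mm10). The marks were H3K27ac, an acetylation found at active promoters and enhancers, and H3K4me3, a methylation found mainly at promoters. Both were mapped by chromatin immunoprecipitation and sequencing (ChIP-seq) in mouse mesenchymal stem cells (MSCs).

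The cells came from C57BL6/N mice aged 3 to 5 months. They are labelled as bone-marrow MSCs and, by the study's methods, were grown out of hind limb bone at low oxygen and sorted as CD45-, TER-119-, CD140a+ and Sca-1+. Hypoxia-cultured cells stayed at 2% O2, whereas normoxia-cultured cells were shifted to 21% O2, so both groups share a first culture phase in hypoxia. Each mark had 2 libraries at each oxygen level, beside 2 input libraries at each level, 12 in all. The 2 libraries of a group gave a single peak list, 4 lists in all, so the spread between replicates, the sequencing depth and the input signal were not analysed here, and no difference below has a replicate check or a test. In bulk chromatin, fewer cells carrying a mark and less of the mark per cell cannot be told apart.

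Cells meet oxidants in layers. NRF2, the product of Nfe2l2, is held and degraded through KEAP1 under resting conditions, and on release it pairs with small MAF proteins at antioxidant response elements, the sites that BACH1 can occupy as a repressor. Its targets make and recycle glutathione, reduce thioredoxin, break down heme and store iron. Superoxide dismutases turn superoxide into hydrogen peroxide, which catalase, glutathione peroxidases and peroxiredoxins then remove, while NADPH oxidases produce these species on purpose. In MSCs, which live in a niche of low oxygen, this balance is known to bear on self-renewal and bone formation.

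To see first which members carried an active promoter, the peaks within 1000 bp of an annotated transcription start were counted. H3K4me3 lay at a start of 37 of the 40 members (92.5%, 95% Wilson interval 80.1 to 97.4) at both oxygen levels, against 58.9% of all protein-coding genes. H3K27ac lay at a start of 34 members in hypoxia (85%, 70.9 to 92.9) and of 32 in normoxia (80%, 65.2 to 89.5), against 37.6% and 37% of all genes. Anywhere in the window, H3K27ac was called at 35 members in hypoxia, against 46% of all genes, and at 34 in normoxia, against 45.5%. These intervals treat genes as the counted units and cover counting error only.

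The members fell into 5 promoter states. Both marks at both oxygen levels were found at 31 members (77.5%, against 35.8% of all genes). Txnrd2 and Txnip carried H3K4me3 at both levels and H3K27ac in hypoxia only, a state held by 0.622% of all genes. Slc7a11, Gpx3, Prdx4 and Nox4 carried H3K4me3 without H3K27ac at the start, the state of 22.4% of all genes. Nqo1 was the only member with H3K27ac and no H3K4me3, a state of 1.08% of all genes, and Gpx2 and Nox1 had neither mark, as did 39.9% of all genes.

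**Figure D1:**
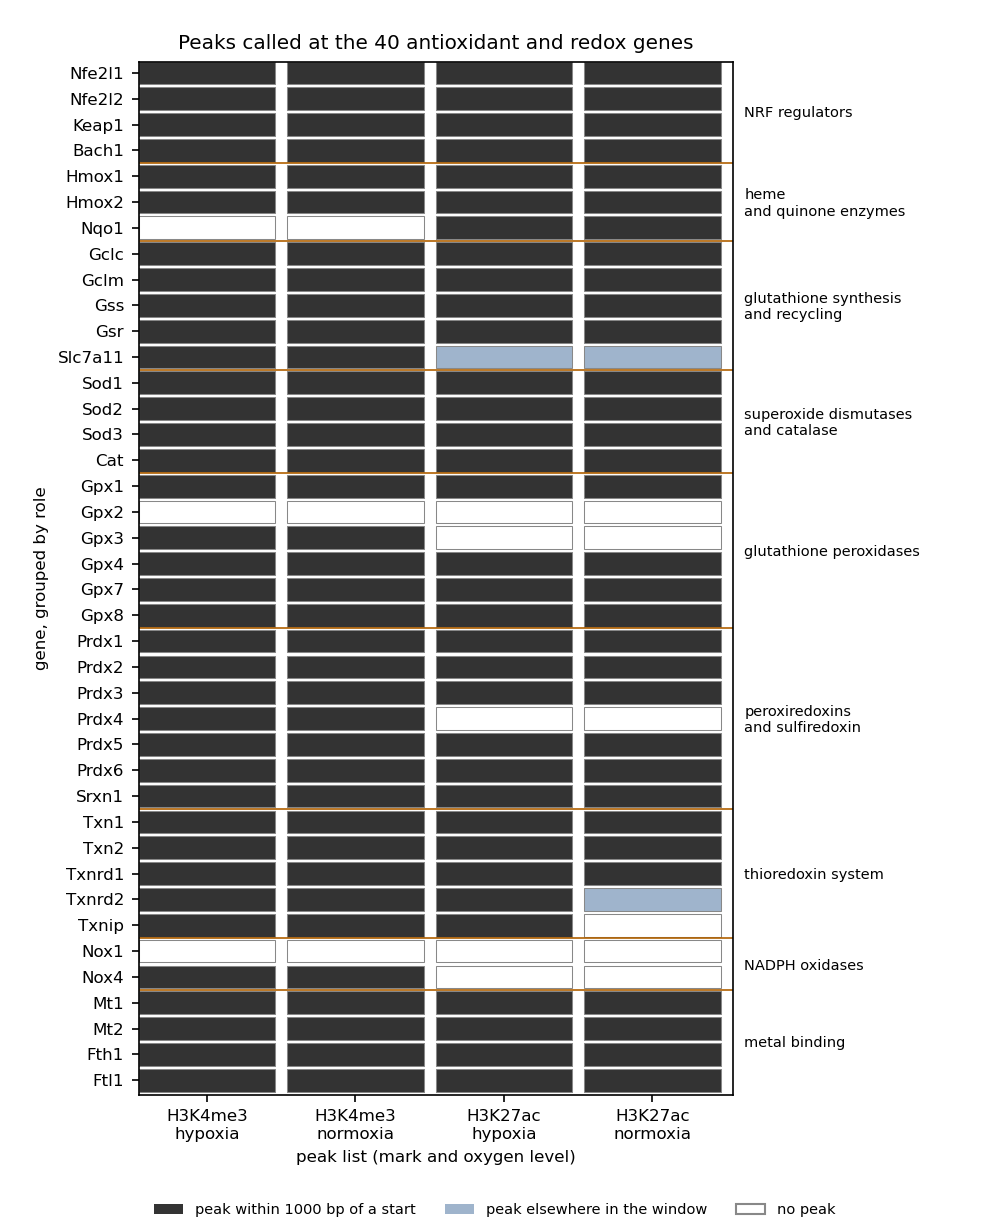
Each row is a member, grouped by role, and each column a peak list of a mark at an oxygen level; dark cells hold a peak within 1000 bp of a start, pale cells a peak elsewhere in the window and white cells none. Both H3K4me3 columns are the same in all 40 rows, and the H3K27ac columns differ at Txnrd2 and Txnip.

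The cell identity behind these calls was checked on marker genes. Of 14 stromal markers, 13 had H3K4me3 and 11 had H3K27ac at a start at both oxygen levels. Eng, Lepr and Nt5e were without H3K27ac there, and Ly6a, which encodes Sca-1, had H3K27ac but no H3K4me3. Of 12 blood and endothelial markers, H3K4me3 was present at a start of 2 and H3K27ac at none of the starts, which allows a share of up to 25%. The sort removed cells of the blood lineage.

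The promoter sequences of members that differ in state are shown next, so that their base content can be compared. RefSeq windows running from 250 bases before to 50 after a start (GRCm38.p6) were at hand for 35 of the 40 members, 47 windows in all. No window was matched for Gsr, Hmox1, Prdx6, Sod3 and Gclc. Of each, the 250 bases before the start are printed, 5′ to 3′ along the gene. Sod1 carried both marks at both levels, Nqo1 H3K27ac alone, and Gpx2 and Nox1 neither mark. Capitals mark CG dinucleotides, the sites of DNA methylation, which are dense in the CpG islands that cover many promoters. The stretches lie at chr16:90220512-90220761, plus strand (Sod1), chr8:107403206-107403455, minus strand (Nqo1), chr12:76795555-76795804, minus strand (Gpx2) and chrX:134111855-134112104, minus strand (Nox1).
Sod1: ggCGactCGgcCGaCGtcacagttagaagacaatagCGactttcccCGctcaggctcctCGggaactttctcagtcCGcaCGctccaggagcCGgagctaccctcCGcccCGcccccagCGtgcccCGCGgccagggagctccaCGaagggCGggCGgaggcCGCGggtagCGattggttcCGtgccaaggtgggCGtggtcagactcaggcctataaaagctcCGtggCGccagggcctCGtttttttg
Nqo1: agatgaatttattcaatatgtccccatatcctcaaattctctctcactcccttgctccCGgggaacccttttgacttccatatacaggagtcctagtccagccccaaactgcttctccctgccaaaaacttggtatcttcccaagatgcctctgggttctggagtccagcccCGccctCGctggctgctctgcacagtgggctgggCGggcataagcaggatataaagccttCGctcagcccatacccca
Gpx2: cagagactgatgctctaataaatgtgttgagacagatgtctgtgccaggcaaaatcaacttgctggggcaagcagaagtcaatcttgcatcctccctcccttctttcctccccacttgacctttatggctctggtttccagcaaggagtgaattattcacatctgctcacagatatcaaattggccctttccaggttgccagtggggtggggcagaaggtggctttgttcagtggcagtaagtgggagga
Nox1: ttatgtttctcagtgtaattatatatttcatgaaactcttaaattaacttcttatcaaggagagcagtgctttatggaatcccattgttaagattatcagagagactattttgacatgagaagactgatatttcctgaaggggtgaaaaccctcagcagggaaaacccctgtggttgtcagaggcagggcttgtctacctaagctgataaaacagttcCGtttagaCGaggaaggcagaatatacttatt

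The Sod1 stretch held 26 CG dinucleotides, Nqo1 5, Nox1 2 and Gpx2 none. Over whole windows, the observed over expected CpG ratio, which is about 1 where CG is as frequent as the base content allows, was 1.02 for Sod1, 0.249 for Nqo1, 0.192 for Nox1 and 0 for Gpx2. The 38 member windows under an H3K4me3 peak had a median ratio of 0.702 and the 9 others 0.192. Over the windows of all protein-coding genes the medians were 0.791 and 0.208, so the member windows showed the split seen across the genome. This split is between windows and not members. The unmarked windows of Hmox2, Fth1, Gpx4 and Txnrd1 belong to members with H3K4me3 at another start. Exceptions lay on both sides. Slc7a11 carried H3K4me3 with a ratio of 0.271, whereas a pair of internal Hmox2 starts had ratios of 0.893 and 1.06 and no H3K4me3. The windows of that pair overlap over most of their length, so they are 1 case and not separate ones.

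**Figure D2:**
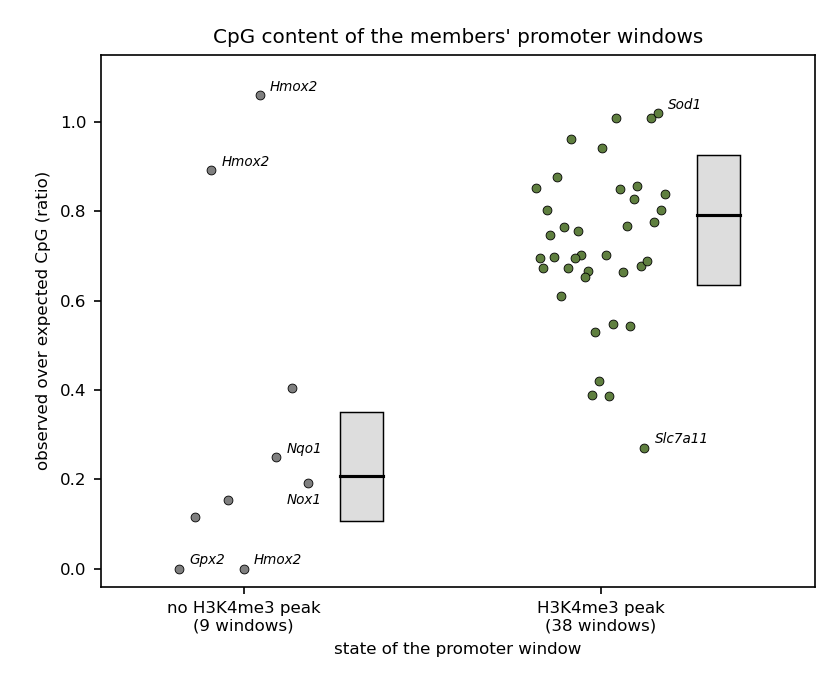
Observed over expected CpG ratio of the members' promoter windows (points, 1 per window, spread sideways for legibility) without and with an H3K4me3 peak; boxes give the quartiles and median over all protein-coding genes in the same state. The members' medians are 0.192 and 0.702, with Hmox2 windows high on the left and Slc7a11 low on the right.

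Changes with oxygen were then sought. Hypoxia-only here means a peak of the hypoxia list without a single base in common with the normoxia list of that mark, and normoxia-only the reverse. H3K4me3 showed no such peak in any of the 40 windows (0.0229% of all genes had one). Its lists held 14606 peaks in hypoxia and 14603 in normoxia, with equal scores at 100% of the shared peaks. They could thus show almost no difference at any gene, and equal H3K4me3 calls here are not evidence of a stable mark. For H3K27ac, 3 of the 40 members held a hypoxia-only peak, Txnip, Txnrd2 and Cat (7.5%, 2.58 to 19.9), against 2.99% of all genes. Among the 35 members with any H3K27ac the share was 8.57% (2.96 to 22.4), against 6.48% of all genes with H3K27ac. At a start the count was 2 of 34 (5.88%, 1.63 to 19.1), against 2.9%. All 3 background shares lie inside the members' intervals. No member held a normoxia-only H3K27ac peak, against 0.815% of all genes and 1.77% of those with H3K27ac. A count of 0 of 40 allows a share of up to 7.5%, so a share as low as the background was not detectable with 40 genes.

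Txnip encodes the thioredoxin-interacting protein, which binds reduced thioredoxin and restrains glucose uptake. Its start and at least a part of each of its 8 exons lay under a single interval, chr3:96556501-96561000, 4500 bp wide. H3K4me3 was called there with the top score of 1000 in both lists. H3K27ac was called in hypoxia with a score of 109, at the 48.9 percentile of that list, and not in normoxia. With no other H3K27ac peak in the window, coverage was 32.3% of the window in hypoxia and 0% in normoxia, and Txnip was the only member listed with H3K27ac at one oxygen level and with none at the other.

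Txnrd2 encodes the mitochondrial thioredoxin reductase. The interval at its start, chr16:18424001-18427500, was 3500 bp wide and carried H3K4me3 with a score of 135 in both lists. H3K27ac was called there in hypoxia with a score of 117, at the 52.5 percentile, and not in normoxia. By its position the call cannot be given to Txnrd2 alone. Directly upstream, a shared H3K27ac interval of 21000 bp, with a score of 1000 in both lists, ended 2384 bp from the start. In hypoxia the touching intervals made a stretch of 24500 bp, so the call that differed lay at the edge of a larger shared region. Over the whole window, H3K27ac covered 9.76% in hypoxia and 4.17% in normoxia.

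Cat encodes catalase, the peroxisomal enzyme that splits hydrogen peroxide. Its start peak, chr2:103483501-103486000, was shared, with H3K27ac scores of 99 in hypoxia and 93 in normoxia and H3K4me3 scores of 123 in both. The hypoxia-only peak lay inside the gene, at chr2:103459501-103463500, over exons 9 and 10 of 13, and 21625 bp from the start. It was 4000 bp wide, had no H3K4me3, and scored 57, at the 9.09 percentile of the hypoxia list. Of the 3 hypoxia-only peaks it was the one with the lowest score and the only one away from a start.

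**Figure D3:**
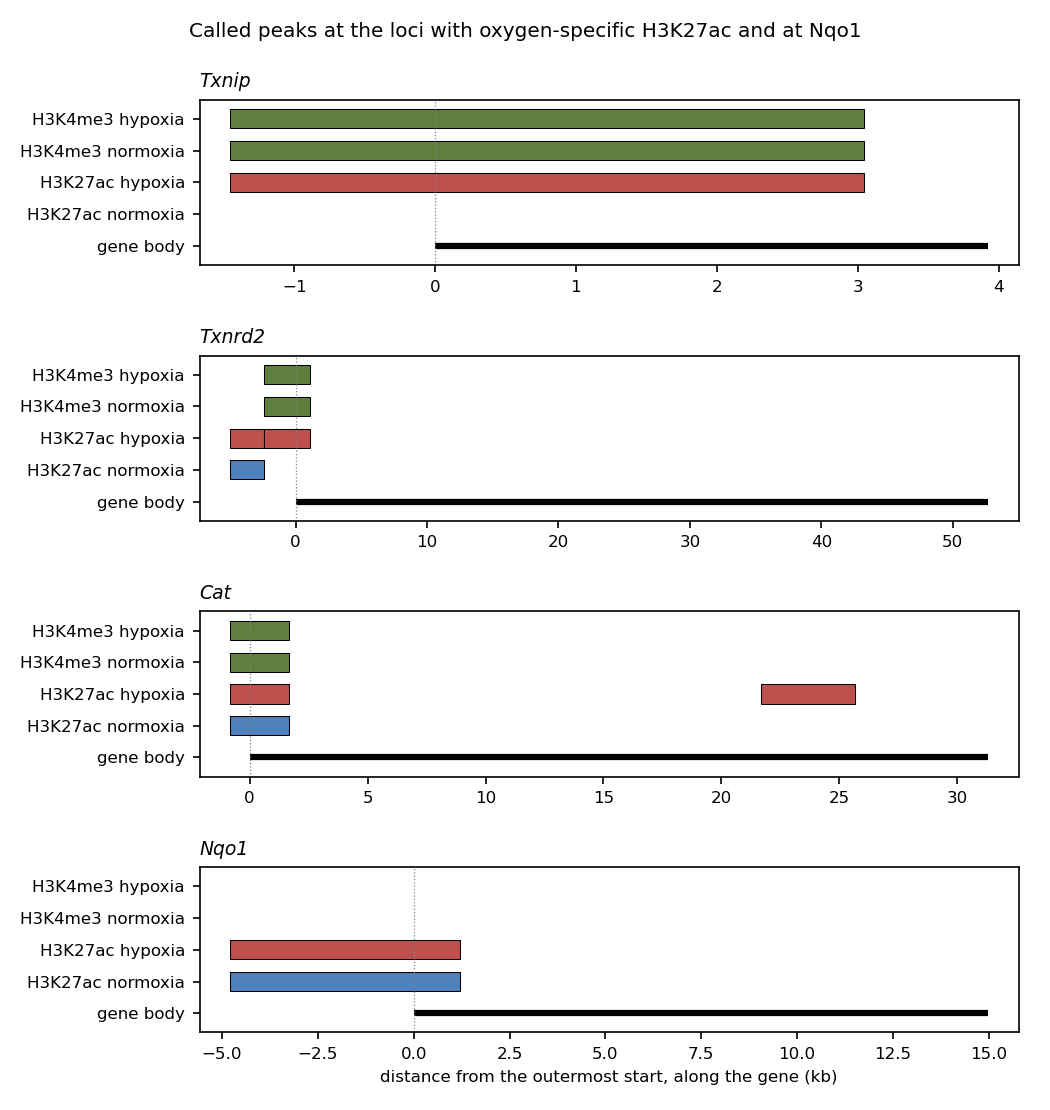
Called peaks at Txnip, Txnrd2, Cat and Nqo1, in kb from the outermost start of each gene along its direction; bars are peaks of each list, drawn to the edge of the 5000 bp flank, and the black line is the gene body. H3K27ac bars are missing in normoxia over the Txnip and Txnrd2 starts and inside Cat, and Nqo1 has no H3K4me3 bar.

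The 250 bases before the start of Txnip (chr3:96557707-96557956, plus strand) and of Txnrd2 (chr16:18426167-18426416, plus strand) are printed because these are the promoters whose H3K27ac call differed between oxygen levels. Capitals mark matches to the core letters of the hypoxia response element, to which hypoxia-inducible factors bind, searched as ACGTG or GCGTG on both strands.
Txnip: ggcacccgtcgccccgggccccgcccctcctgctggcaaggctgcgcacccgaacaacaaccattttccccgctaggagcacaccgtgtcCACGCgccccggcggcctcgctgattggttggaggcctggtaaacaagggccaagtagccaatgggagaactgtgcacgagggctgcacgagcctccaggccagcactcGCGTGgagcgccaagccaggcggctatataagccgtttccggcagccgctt
Txnrd2: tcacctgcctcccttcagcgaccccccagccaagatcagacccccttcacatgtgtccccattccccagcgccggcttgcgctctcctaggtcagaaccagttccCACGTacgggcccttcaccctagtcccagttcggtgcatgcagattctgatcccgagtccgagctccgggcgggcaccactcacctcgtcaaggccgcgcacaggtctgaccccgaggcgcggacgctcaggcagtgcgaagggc

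Txnip held 2 matches, whose first bases lay 160 and 51 bases before the start, and Txnrd2 held 1, 145 bases before. Such short words are common. At least 1 was present in windows of 25 of the 35 members and in 68.1% of member windows. The share was 43.8% over the 32851 windows of all genes and 50.4% over those of protein-coding genes. Some windows of the same gene overlap, so a match can count in more than 1 window. Among windows under H3K4me3 the shares were 78.9% for members and 66.4% for protein-coding genes. The full E-box, CACGTG, occurred in 1 member window, that of Prdx4, and in 7.15% of all windows and 8.03% of those of protein-coding genes. In Prdx4 it overlaps a match to the hypoxia core on each strand. Looser forms of this word were not searched, so nothing follows for carbohydrate response elements at Txnip.

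H3K27ac peaks called at both oxygen levels were compared by the score that the authors gave each peak. How that score is defined is not given in the sources used here. It ran from 50 to 160 or stood at 1000, and the share of peaks at 1000 differed between chromosomes, from 0% to 42.2% in the hypoxia H3K27ac list, so only the same interval was compared between lists. H3K4me3 scores were equal at 100% of shared peaks and hold no contrast. In the member windows 60 H3K27ac peaks were shared, of which 17 stood at 1000 in both lists. Of the other 43, the score was higher in hypoxia at 21 (48.8%), equal at 15 and higher in normoxia at 7 (16.3%). Over all 12039 shared peaks compared in this way the shares were 48.4% and 20.1%.

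The hypoxia list also had more peaks at the top of the scale. On the percentile rank of each score within its own list, 16 member peaks ranked higher in hypoxia (37.2%) and 27 in normoxia (62.8%). Over all shared peaks the shares were 36.8% and 63.2%. The 15 member pairs with equal scores all ranked higher in normoxia through the ranking alone. Of the 27, 7 had a higher raw score in normoxia. The direction of the majority thus turned with the scale, for the members as for all peaks, and on both scales the members lay close to the background.

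The 5 members with the largest rank difference toward hypoxia were Hmox2, Sod3, Gss, Prdx2 and Hmox1. Hmox2, the constitutive heme oxygenase, had a start peak (chr16:4725501-4728000) with a score of 1000 in hypoxia and 84 in normoxia, or ranks of 88.9 and 37.2. Gss, glutathione synthetase, had 1000 and 111 at its start (chr2:155591001-155593500), or 88.9 and 55.2. Sod3, the extracellular superoxide dismutase, had 105 and 56 (chr5:52363001-52365000), or 46.7 and 8.62. At these 3 starts the score in normoxia was lower than in hypoxia while the peak stayed in both lists.

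Prdx2, an abundant cytosolic peroxiredoxin, had scores of 135 and 91 over its start (chr8:84967501-84971500), ranks of 71.7 and 42.3. This interval also covers starts of Rnaseh2a and Gm49661. Hmox1, the inducible heme oxygenase and a classical NRF2 target, had 106 and 72 at its start (chr8:75093001-75096000), ranks of 47.3 and 26.5. All 5 of these peaks were called at both oxygen levels.

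In the other direction the 5 members were Prdx6, Nqo1, Gsr, Gclm and Sod2. Prdx6, a peroxiredoxin with phospholipase activity, had a start peak (chr1:161249001-161252000) scoring 84 in hypoxia and 112 in normoxia, ranks of 33.8 and 55.7. Nqo1, the quinone oxidoreductase used as a readout of NRF2 activity, had 70 and 93 (chr8:107402001-107408000), ranks of 22.3 and 43.8. Both scored higher in normoxia on the raw score as well as on the rank.

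Gsr, glutathione reductase, had an intronic peak (chr8:33655001-33662000) with scores of 110 and 123, ranks of 49.4 and 61.7. The peak credited to Gclm, the modifier subunit of glutamate-cysteine ligase, lay in its window but over the start of Dnttip2 (chr3:122273501-122276000), with scores of 61 and 71. The start peak of Gclm itself stood at 1000 in both lists. Sod2, the mitochondrial superoxide dismutase, completed the 5 with equal scores of 127 and a rank difference of -5.87, which reflects the lists and not a change in score.

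**Figure D4:**
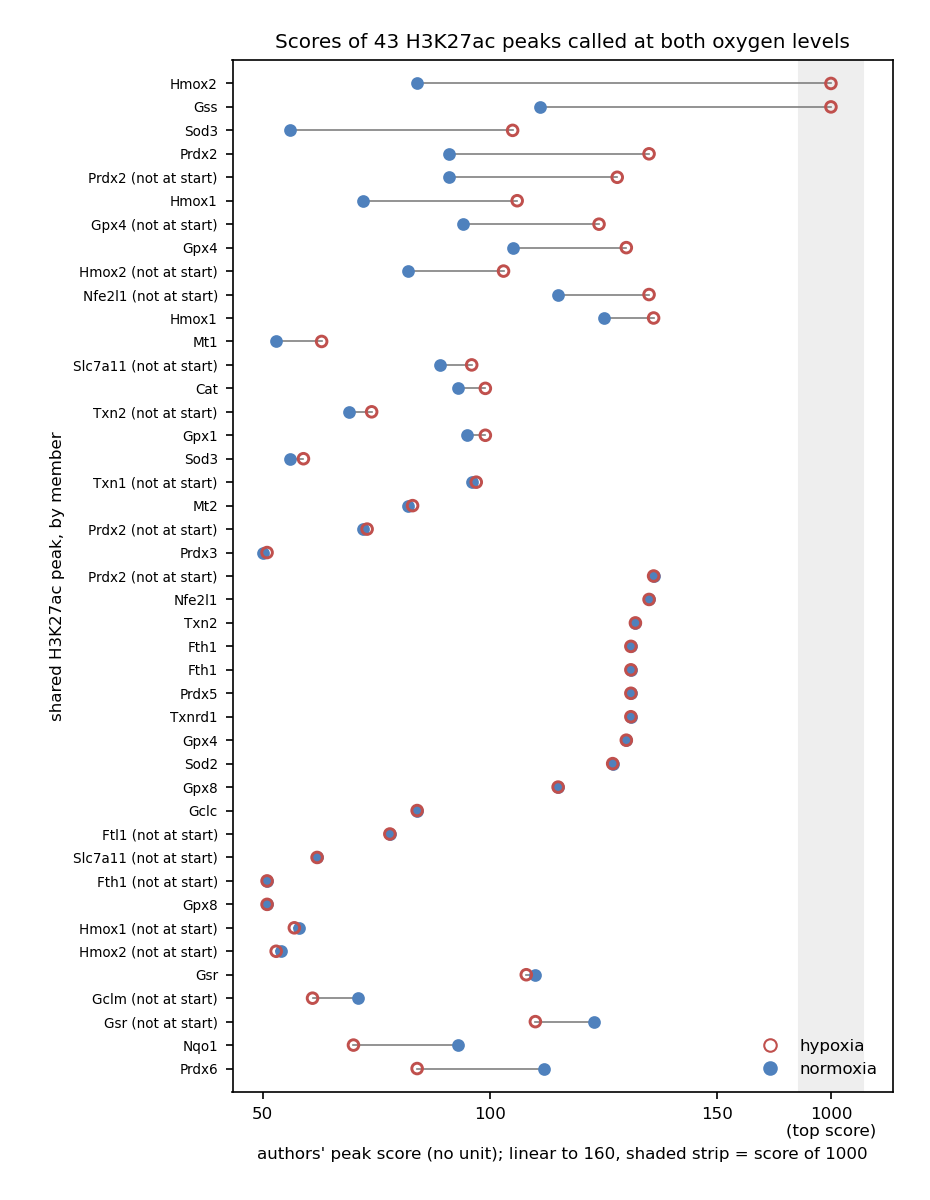
Score of each of the 43 shared H3K27ac peaks in hypoxia (open circles) and normoxia (filled circles), labelled by member and by whether the peak lies within 1000 bp of its start; the axis is linear to 160 and the shaded strip stands for the score of 1000. Hmox2, Gss and Sod3 show the widest gaps, 15 pairs coincide, and Prdx6 and Nqo1 lead the 7 pairs with a higher score in normoxia.

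How far H3K27ac spread over each gene was measured as the share of the window under peaks. The members' median was 17.6% in hypoxia (95% interval of the median 13.5 to 26.7) and 17% in normoxia (8.94 to 25.6). The median over all genes was 0% at both levels. Those intervals cover the spread between genes and do not measure the difference between levels in the same genes. Cover differed between levels only at Txnip, Cat and Txnrd2. The windows of members were shorter, with a median of 21832 bp against 27380 bp. H3K27ac stretches at a start, with touching peaks joined, had a median length of 3500 bp for members and for all genes alike in hypoxia. Their upper quartile was 9125 bp for members and 6000 bp for all genes.

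The members with the most bases under H3K27ac in hypoxia were Nfe2l2, Nfe2l1 and Hmox1. Nfe2l2 had 28500 bp under H3K27ac, 72.8% of its window, from an interval at the start (chr2:75701501-75706000) and another of 24000 bp over exons 2 to 4 (chr2:75677501-75701500), both at 1000 in both lists. Nfe2l1, which encodes the related factor NRF1, had 19087 bp (84.6%), and its start interval carried H3K4me3 over 9500 bp. Hmox1 had 15380 bp (90.6%), made of its start peak, an upstream interval of 11000 bp (chr8:75082001-75093000, scores 136 and 125) and an interval of 8000 bp over exons 3 to 5 (scores 57 and 58). In each of the 3, the same number of bases was covered in normoxia. The other regulators, Keap1 and Bach1, had 3000 bp each (15.3% and 6.76%).

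Fth1 and Ftl1, the heavy and light ferritin chains that store iron, and Gpx1, the main cytosolic glutathione peroxidase, had 100% of their windows under H3K27ac at both levels. Each of these windows is short, 14501, 11941 and 11441 bp, and peaks nearest to other genes reach into those of Ftl1 and Gpx1 (Bax for Ftl1 and Usp4 for Gpx1).

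**Figure D5:**
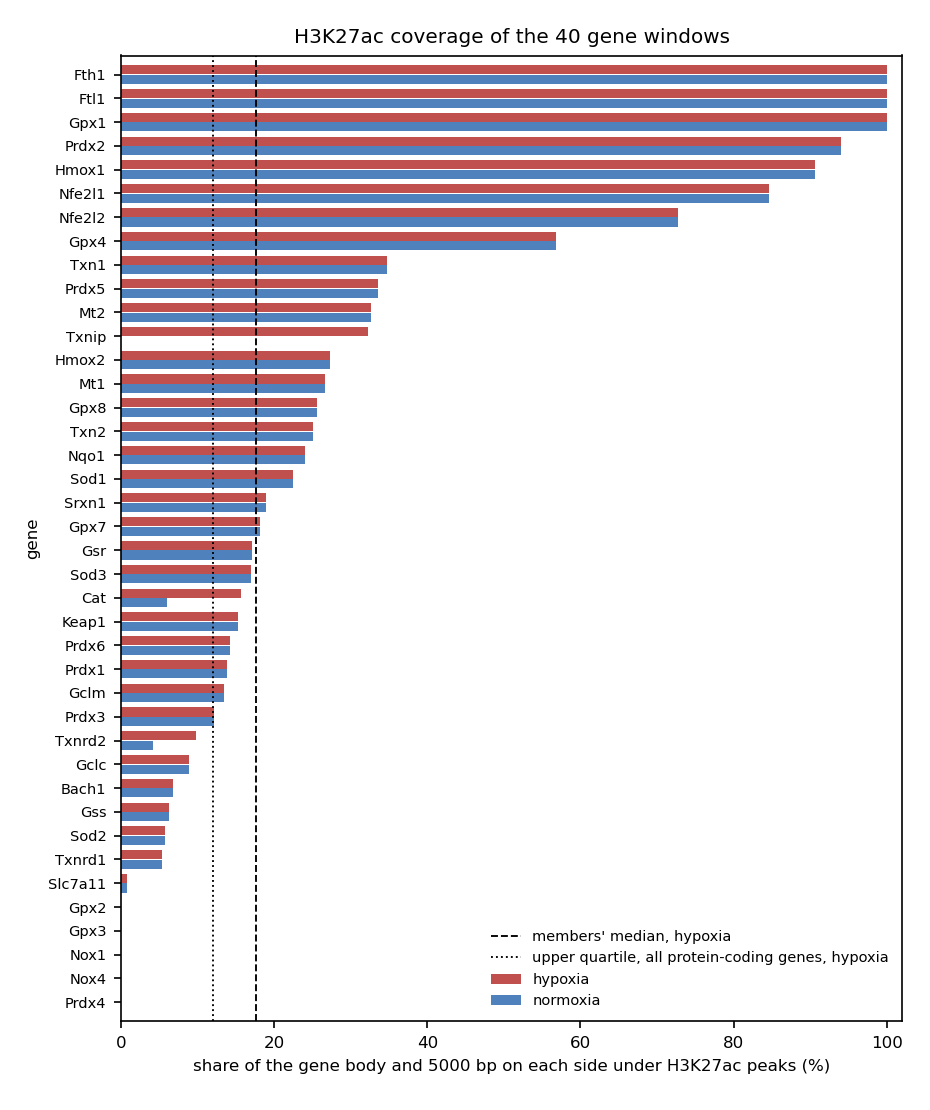
Share of each member's window under H3K27ac peaks in hypoxia and normoxia (bars); the dashed line is the members' median in hypoxia (17.6%) and the dotted line the upper quartile of all protein-coding genes (12%). Paired bars differ at Txnip, Cat and Txnrd2 and are equal at the other genes.

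By role, the 4 regulators Nfe2l2, Nfe2l1, Keap1 and Bach1 all carried both marks at both levels. Keap1, the NRF2 adaptor, and Bach1, the heme-sensitive repressor, each had a start peak of 3000 bp at the top H3K27ac score in both lists. A further H3K4me3 peak in the Keap1 window lay nearest to S1pr5. None of the 4 had a condition-specific peak of either mark.

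Heme and quinone enzymes all had H3K27ac at a start at both levels. Beside its start, Hmox2 had an intronic peak with scores of 53 and 54 and a 26000 bp interval over its 3′ exons (chr16:4762501-4788500, scores 103 and 82) that lies nearest to Cdip1. Nqo1 stood apart from them by its lack of H3K4me3. Its H3K27ac peak covered the start and exon 1 over 6000 bp, and the nearest H3K4me3 peak lay 20295 bp from the start.

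Of the 5 genes for glutathione synthesis and recycling, all had H3K4me3 and 4 had H3K27ac at a start. Gclc, the catalytic subunit of glutamate-cysteine ligase, had H3K27ac scores of 84 in both lists at its start and of 1000 in both at an interval 2535 bp upstream. Slc7a11, the cystine importer that feeds glutathione synthesis, had no H3K27ac at its start. Its H3K4me3 peak there was 1500 bp wide with a score of 53, the lowest H3K4me3 score at any member's start. In this annotation the gene runs over 551089 bp, and the 2 H3K27ac peaks in its window lay 533111 and 554611 bp from the start, nearest to Pcdh18.

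Superoxide dismutases and catalase carried both marks at both levels in all 4 cases. Sod1, the cytosolic dismutase, stood at 1000 in both H3K27ac lists over a 3500 bp interval. Sod3 had a short upstream peak beside its start, of 1000 bp, with scores of 59 and 56. In this group the scores at the start were furthest apart for Sod3 and equal for Sod1 and Sod2.

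Of the 6 glutathione peroxidases, 5 had H3K4me3 and 4 had H3K27ac at a start at both levels. Gpx4, which reduces lipid hydroperoxides and guards against ferroptosis, had 3 shared intervals with scores of 130 and 130 at its main start, 130 and 105 in the interval beside it and 124 and 94 downstream. Gpx7 and Gpx8, which act in the endoplasmic reticulum, had 1000 in both lists and 115 in both lists at their starts. Gpx3, the secreted enzyme of plasma, had H3K4me3 at its start (score 127) and its nearest H3K27ac peak 34772 bp away. Gpx2, the gastrointestinal form, had no peak of either mark in the window, and the nearest lay 24947 bp (H3K4me3) and 28554 bp (H3K27ac) from its start.

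All 7 genes of the peroxiredoxin and sulfiredoxin group had H3K4me3 at a start, and 6 had H3K27ac. Prdx1 and Srxn1, a cytosolic peroxiredoxin and the enzyme that repairs hyperoxidized peroxiredoxins, stood at 1000 in both H3K27ac lists. Prdx3, the mitochondrial form, had H3K27ac scores of 51 and 50 at its start, close to the floor of the scale, under an H3K4me3 peak with the top score. Prdx4, the form of the secretory pathway, had H3K4me3 with a score of 126 and no H3K27ac closer than 74967 bp.

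In the thioredoxin system, H3K4me3 was at a start of 5 of 5 genes, and H3K27ac at 5 of 5 in hypoxia and 3 of 5 in normoxia. It was the only role in which the count of H3K27ac-marked starts differed between oxygen levels, through Txnip and Txnrd2. Over all genes the shares with H3K27ac at a start were 37.6% and 37%, and 1.09% had a hypoxia-only peak there. With 5 genes the Wilson intervals of the role, 56.6 to 100% in hypoxia and 23.1 to 88.2% in normoxia, overlap. No difference between roles can be read from these counts. Txn1, the cytosolic thioredoxin, had 1000 in both lists at its start and 97 and 96 in the interval beside it. Txn2, its mitochondrial counterpart, had 132 in both lists, and Txnrd1, the cytosolic reductase, 131 in both. The start interval of Txnrd1 thus had equal calls and scores at both levels. The interval over the Txnrd2 start did not, but it adjoins a shared interval and cannot be given to Txnrd2 alone.

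The NADPH oxidases were the least marked role. Nox4, which releases hydrogen peroxide and is found in many stromal cells, had H3K4me3 at its start (score 133) and its nearest H3K27ac peak lay 1930206 bp away. Nox1, the colon form, had neither mark in a window of 145536 bp, and the nearest peak of each mark lay 51208 bp from a start.

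Metallothioneins bind zinc and copper and scavenge oxidants. Mt1 and Mt2 lie next to each other on chromosome 8 and both carried both marks, with H3K27ac scores of 63 and 53 at Mt1 and 83 and 82 at Mt2. The Mt1 peak also falls in the Mt2 window. Metallothionein promoters are known for metal response elements, bound by MTF1, and the Mt2 stretch (chr8:94172368-94172617, plus strand) is shown with matches to their core, searched as TGCGCNC or TGCACNC on both strands, in capitals.
Mt2: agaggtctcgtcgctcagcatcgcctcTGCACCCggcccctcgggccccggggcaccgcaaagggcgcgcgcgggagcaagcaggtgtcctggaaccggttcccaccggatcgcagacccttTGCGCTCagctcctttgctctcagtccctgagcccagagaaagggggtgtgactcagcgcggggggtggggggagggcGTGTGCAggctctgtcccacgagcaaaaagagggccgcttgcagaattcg

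Mt2 held 4 such matches in its whole window and Mt1 held 3. A match occurred in 12 of the 35 members and in 25.5% of member windows. The share was 25.7% over all windows and 29.8% over those of protein-coding genes. Under H3K4me3 it was 28.9% for members and 39.3% for protein-coding genes. The letters as such were thus no more frequent in the members.

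The antioxidant response element was searched as its core, TGACNNNGC, on both strands. It occurred in windows of 7 of the 35 members and in 14.9% of member windows. The share was 12.4% over all windows and 13.1% over those of protein-coding genes. Among windows under H3K4me3 the shares were 18.4% for members and 14.5% for protein-coding genes. The 7 matches are given as read on the strand of the motif, with its fixed letters in capitals, since this is the site through which NRF2 is known to act.
Gclm: TGACggtGC
Mt2: TGACtcaGC
Nfe2l2: TGACtccGC
Prdx1: TGACtcaGC
Sod1: TGACcacGC
Srxn1: TGACctaGC
Txnrd1: TGACaaaGC

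All 7 promoters with a match carried both marks at both oxygen levels, the state of 31 of the 40 members (77.5%). Mt2 and Prdx1 shared the same 9 letters, and the Sod1 match overlaps one to the hypoxia core. Nqo1, Txnip and Txnrd2 had no match in these windows, which says only that the letters are not in them.

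Because a window can reach into a neighbour, each interval was tied to the nearest protein-coding start. The 40 windows held 71 distinct intervals, of which 36 carried both marks at both levels, 24 H3K27ac alone at both levels and 8 H3K4me3 alone. They made 72 pairs of a member and an interval, and in 60 the nearest start was the member's own. The other 12 pairs, in the windows of 10 members, lay nearest to another gene. These counts of intervals and pairs have no share over all genes beside them. They describe the member windows and do not set them apart from other genes. Of the 3 hypoxia-only peaks, those at Txnip and Cat lay nearest to that member alone.

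The wider pathway was read from a further list of 87 redox genes. H3K4me3 was at a start of 73 (83.9%) and H3K27ac at a start of 53 (60.9%) at both levels, both above the shares of all genes given above. Hypoxia-only H3K27ac peaks lay in 4 windows (4.6%, 1.8 to 11.2, against 2.99% of all genes) and normoxia-only peaks in none. They were at Blvra, biliverdin reductase (score 66), Maff, a small MAF partner of NRF2 (score 52), Mgst3, a microsomal glutathione transferase (score 50), and Osgin1, an oxidative stress-induced growth inhibitor (score 65). Of these, the one at Maff lay within 1000 bp of a start, at 937 bp, and the others lay 1839 to 7808 bp from theirs.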

How the data were processed

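H3K27ac and H3K4me3 ChIP-seq of hypoxia- and normoxia-cultured MSCs was analysed from the 4 peak lists that the authors deposited, 1 per mark and oxygen level. By the study's methods, reads were mapped to mm10 with bowtie2, duplicates were removed with Picard, and chromstaR called the peaks in its differential mode, hypoxia against normoxia. The labels name 1 list for both libraries of a group. Peak boundaries in the files step by 500 bp. The deposited column used beside the positions is the authors' score per peak, with 50 as the lowest value and 1000 as the highest. The lists hold no reads, so depth and replicate spread are unknown and no test was made. The authors' own read-based comparison was not used. Some items near or among the genes and markers examined are not reported here.

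Peaks were assigned to genes with GENCODE M21 (basic set), starts being those of protein-coding transcripts. A peak counted in a window or at a start when it overlapped it, or lay within 1000 bp of the start, by at least 1 base. Shares carry 95% Wilson intervals. Percentile ranks were taken within each list, and pairs at 1000 in both lists were left out of the score comparison. Promoter windows came from RefSeq (GRCm38.p6). Calculations used Python 3.11.15, pandas 2.3.3, numpy 2.4.6 and scipy 1.17.1, and the overlap code was tested on simulated peaks. Named members were those with a condition-specific peak, with no peak at a start, the 3 with the most H3K27ac-covered bases, the 5 with the largest rank difference in each direction, and examples of each role. The members and lists were chosen with earlier results of these data known.

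The alternatives tried were other windows and distances to a start, starts of all transcripts, leaving out the lowest-scoring 25% of peaks, an overlap of 50% or more of the peak, only peaks nearest to the member, and other ranks of the score.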

Additional observations from a re-analysis of the deposited data

How the results depend on the processing

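Of 62 values recomputed under the alternatives, 60 stayed within the spread or within 1.5 times the count. Leaving out the lowest-scoring 25% of peaks of each list changed which members were condition-specific: normoxia-only H3K27ac peaks were then found at 2 members, Nqo1 and Gclm, in place of 0, and hypoxia-only peaks at 4, Sod3, Txn2, Txnrd2 and Txnip, so that Cat was lost. Peaks dropped from only 1 list of a pair make such calls by construction. No share of all genes at this setting stands beside these counts, so they are not a result about the members. Txnip and Txnrd2 stayed hypoxia-only under every alternative computed. The position of these peaks over a start and their ranks above the lowest 25% fixed this in advance, so it adds no support. With 10000 bp on each side, the members' median H3K27ac cover in hypoxia was 13.2%, since longer windows hold more unmarked bases. The count of shared peaks with a higher rank in hypoxia was 16, and 21 by raw score, and 18 when ranks were taken within each chromosome, an alternative chosen after seeing the data. No paired analysis was possible because each group gave a single peak list and no value per library. For the same reason no replicate could be left out, and depth, the spread between the 2 libraries and the input could not be weighed.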
